A study of Mus musculus with 8 samples.

Results

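The Hes and Hey genes encode a family of transcriptional repressors, and their transcripts were followed in E14Tg2A.4 mouse ES cells before and after retinoic acid (RA). The 9 genes described are *Hes1*, *Hes2*, *Hes3*, *Hes5*, *Hes6*, *Hes7*, *Hey1*, *Hey2* and *Heyl*, chosen by their names among the 36406 gene or transcript names that the arrays carry, and each was represented by a single probe. Untreated cells were compared with cells given 1 µM all-trans RA for 72 h, with 4 biological replicates of each condition on Agilent 1-colour expression arrays. All samples come from a single ES cell line with no genetic change named in the labels, and RA was given in medium lacking leukemia inhibitory factor (LIF), so that the effects of RA and of LIF withdrawal cannot be told apart. The values are log2 intensities of the background-corrected spot relative to the 75th percentile of the array. A value of a probe describes change between conditions and cannot be set against the value of another probe.

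Hes and Hey proteins belong to the basic helix-loop-helix (bHLH) class and carry a second conserved region called Orange. They bind DNA as dimers, recruit Groucho/Tle corepressors, and are best known as targets of Notch signalling. The cleaved Notch receptor joins the DNA-binding protein Rbpj and turns on *Hes1*, *Hes5* and the Hey genes. In neural tissue *Hes1* and *Hes5* hold progenitors undifferentiated by repressing proneural bHLH genes, *Hes7* drives the segmentation clock of the presomitic mesoderm, and Hey genes act in heart and vessels. *Hes6* differs from the others in that its product opposes Hes1.

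The RefSeq table of promoters (GRCm38.p6) holds entries for 4 of the 9 genes, *Hes5*, *Hes6*, *Hes7* and *Hey2*. The 250 bases before the start are printed 5′ to 3′ in the sense of the gene, to show where the letters of the Rbpj site occur in a member that fell after RA, *Hes7*, and in others that did not pass the test. Capitals mark each match to GTGGGAA on either strand, which reads TTCCCAC on the opposite strand. The windows are chr4:154960673-154960922 (+) for *Hes5*, chr11:69120203-69120452 (+) for *Hes7*, chr10:30842784-30843033 (-) for *Hey2* and chr1:91413223-91413472 (-) for *Hes6*, which has a second listed start that is not printed.
Hes5: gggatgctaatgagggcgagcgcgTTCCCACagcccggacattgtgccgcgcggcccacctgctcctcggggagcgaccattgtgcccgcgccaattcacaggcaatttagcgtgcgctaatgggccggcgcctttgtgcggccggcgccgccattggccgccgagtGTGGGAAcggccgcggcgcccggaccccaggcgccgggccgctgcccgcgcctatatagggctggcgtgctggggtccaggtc
Hes7: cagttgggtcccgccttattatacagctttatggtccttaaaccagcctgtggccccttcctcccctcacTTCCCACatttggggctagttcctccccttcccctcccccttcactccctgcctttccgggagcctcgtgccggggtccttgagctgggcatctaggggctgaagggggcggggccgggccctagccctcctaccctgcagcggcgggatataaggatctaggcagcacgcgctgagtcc
Hey2: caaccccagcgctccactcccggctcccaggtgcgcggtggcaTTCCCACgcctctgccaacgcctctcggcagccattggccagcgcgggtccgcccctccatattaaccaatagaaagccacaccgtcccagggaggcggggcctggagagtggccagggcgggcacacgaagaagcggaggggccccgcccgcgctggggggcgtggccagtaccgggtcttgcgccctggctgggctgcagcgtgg
Hes6: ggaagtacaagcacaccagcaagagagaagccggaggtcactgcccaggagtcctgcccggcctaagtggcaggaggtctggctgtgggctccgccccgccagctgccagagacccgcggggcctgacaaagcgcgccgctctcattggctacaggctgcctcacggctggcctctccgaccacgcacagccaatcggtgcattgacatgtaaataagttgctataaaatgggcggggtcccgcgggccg

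*Hes5* held 2 matches to GTGGGAA, which begin 226 and 83 bases before the start and face opposite ways. *Hes7* held 1, beginning 180 bases before the start, and *Hey2* held 1, beginning 207 bases before it. Neither window of *Hes6* held any. Of all 32851 promoter windows of this length in the table, 5.42% held the motif. Letters to which Hes dimers themselves bind, CACNAG (the N box) and CACGNG, were also searched on both strands, and CACGAG counts for both. CACNAG occurred in the printed *Hes6* window and in *Hes7*, against 36.7% of all windows, and CACGNG 2 times in *Hes7* and in the second *Hes6* window, against 23.5%. A direct repeat bound by RA receptors, AGGTCA with 5 bases between the copies, occurred in none of the 5 windows and in 0.00913% of all. These are descriptions of letters, in windows of 63.2% to 71.6% G and C.

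The arrays separated the conditions clearly. Between 33629 and 37175 of 59305 spots were well above background per array, none was saturated, and over the probes above background on all arrays the correlation between replicates was 0.9793 or higher in each condition and at most 0.9329 between conditions. Relative to the 75th percentile, the median probe differed by -0.28 log2 units after RA, and by -0.0026 after quantile normalization, so small decreases are to be read against that shift. All 8 markers of undifferentiated ES cells fell, whereas 7 of 7 primitive endoderm markers and 6 of 6 smooth muscle and fibroblast markers rose. Of 8 neural markers 2 rose and 2 fell, and of 6 mesoderm markers *Mesp1* fell, while *Mixl1* also passed the test but was not well above background on any array. The summed signal of the ES markers lay between 8.13 and 8.57 log2 units on untreated arrays and between 3.39 and 5.10 on RA-treated arrays. RA-treated replicate 2 stood apart as the array with the highest ES marker signal of its condition, for 7 of the 8 markers and in the sum (5.10 against 3.39 to 4.05). All 6 mesoderm markers were highest there as well, but *Mesp1* and *Mixl1* were at background on every RA-treated array. The summed signal of the primitive endoderm markers moved from between 3.08 and 4.52 to between 5.86 and 6.26. That of the smooth muscle and fibroblast markers moved from between 1.32 and 2.13 to between 8.13 and 8.97. For the neural markers it was 3.75 to 4.50 and 3.55 to 3.89, and for the mesoderm markers 1.17 to 1.46 and 0.97 to 1.83. The part of these shifts in the results on Hes and Hey genes was not tested, and fewer cells of a type and less RNA per cell cannot be told apart in such bulk samples.

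After RA, 4 Hes and Hey genes were lower and none was higher. *Hes2*, which was dim on 3 of the 4 RA-treated arrays, and *Hes3* fell most, in an order that depended on the background correction. *Hes3* fell 8.2-fold and *Hey1* 2.12-fold, and *Hes7* fell least. *Hes1*, *Hes5*, *Hes6*, *Hey2* and *Heyl* did not pass the test. A gene was called changed at an adjusted p under 0.05 and a fold change above 1.5, from limma with Benjamini-Hochberg adjustment over all 55681 probes. By this rule 23.1% of the 18913 genes with a RefSeq symbol were lower and 19.1% were higher, and among those well above background on all 4 arrays of at least 1 condition, to which 8 of the 9 members belong, 28.0% were lower and 24.7% higher. The 4 members that fell had no overlap between conditions, as had 26.8% of all genes in the lower direction and 21.2% in the higher. The median log2 fold change was -0.29 for the 9 members and -0.48 without *Heyl*, which was at background on 7 arrays, beside -0.25 for all genes with a symbol and -0.12 for those above background.

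**Figure D1:**
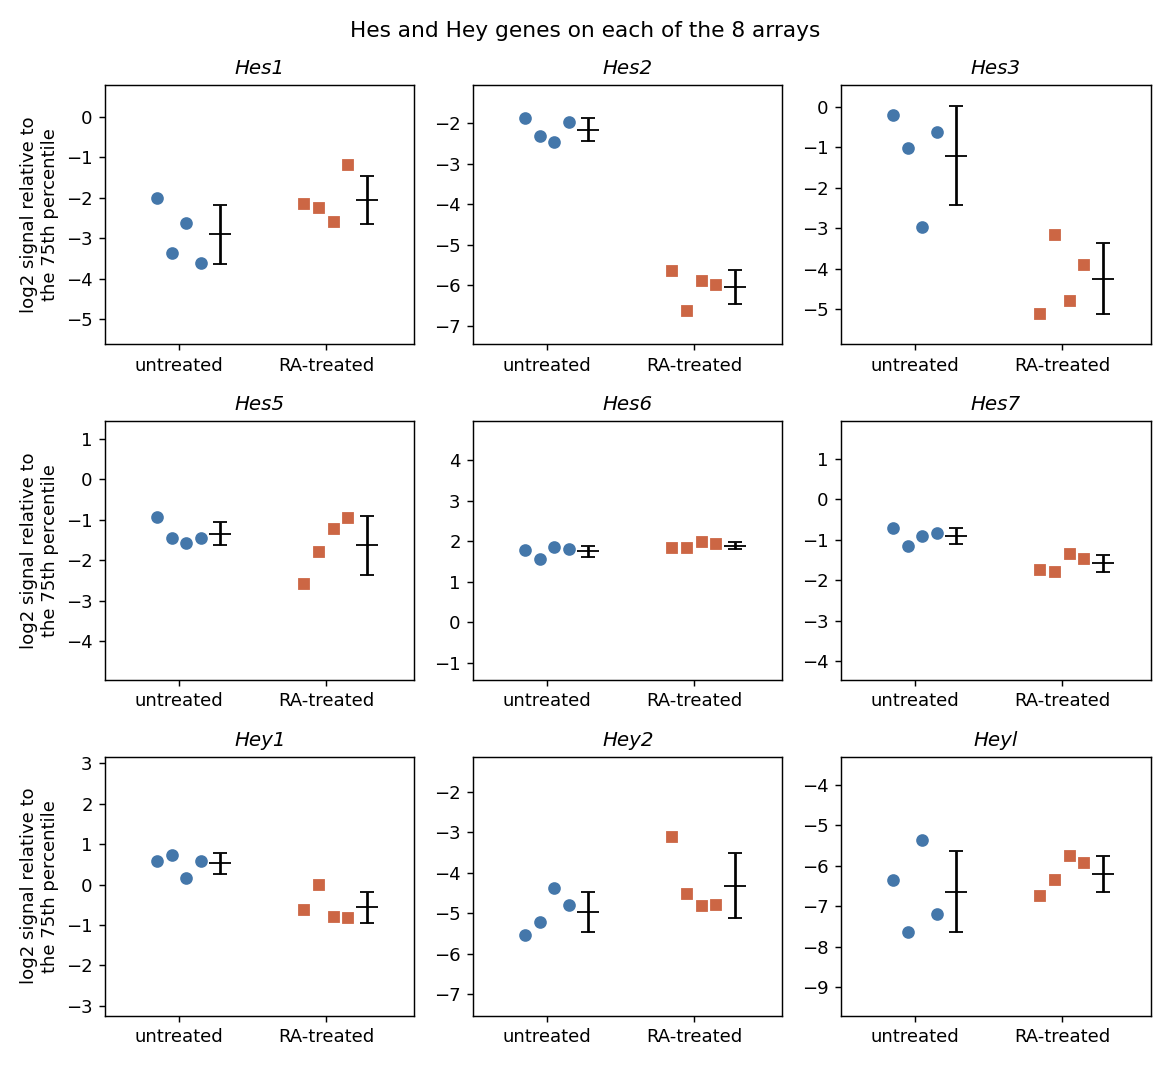
Each panel plots the log2 signal of a gene relative to the 75th percentile of the array, with a point for each untreated (circles) and RA-treated (squares) array in the order of replicates 1 to 4, and the mean with its SD beside the points. All panels span the same range of log2 units, and the conditions are separate for Hes2, Hes3, Hes7 and Hey1 and overlap for the other 5 genes.

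*Hes2*, a less studied repressor of the family, showed the clearest decrease. Its probe (NM_008236, chromosome 4, 151536406 to 151536465 in mm9) read -1.88, -2.32, -2.47 and -1.96 on untreated replicates 1 to 4 and -5.64, -6.63, -5.89 and -5.99 on RA-treated replicates 1 to 4. Every RA-treated array lay more than 3 log2 units below every untreated array. The log2 fold change was -3.88 (standard error 0.24, adjusted p = 8.49e-06 from limma), or 14.7-fold lower. *Hes2* was well above background on all untreated arrays but only on RA-treated replicate 1, so the size is less certain than the direction. With the 3 dim arrays raised to the lowest signal well above background on the same array, the difference was -3.63, or 12.4-fold. Background correction with an offset of 50 (normexp) compressed it to -1.93, and the authors' processed values gave -1.77.

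*Hes3*, which is known from neural stem cells and the isthmic organizer, fell with a wider spread. Untreated replicates 1 to 4 read -0.20, -1.03, -2.98 and -0.63, and RA-treated replicates read -5.12, -3.16, -4.79 and -3.92 (NM_008237, chromosome 4, 151660083 to 151660142 in mm9). The probe was well above background on all 8 arrays. Untreated replicate 3 was the low array of its group and RA-treated replicate 2 the high one, and these came close to each other without crossing. Among the arrays of their conditions these had the lowest (8.13) and the highest (5.10) summed signal of ES markers, and likewise of neural markers (3.75 and 3.89). Both were lowest for the primitive endoderm markers (3.08 and 5.86), and untreated replicate 3 was highest for the smooth muscle and fibroblast markers (2.13). The part of these in the spread of *Hes3* was not tested. *Hes3* fell by 3.04 log2 units (standard error 0.64, adjusted p = 0.00514 from limma). With single arrays left out the value ran from -3.62, without untreated replicate 3, to -2.70, without untreated replicate 1. It was -2.06 with the normexp background and -1.93 on the authors' processed values.

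*Hey1*, a Notch target with roles in vessels and bone, fell 2.12-fold. It read 0.57, 0.74, 0.17 and 0.59 on untreated replicates 1 to 4 and -0.62, -0.01, -0.80 and -0.82 on RA-treated replicates (NM_010423, chromosome 3, 8663432 to 8663491 in mm9). RA-treated replicate 2, with the highest ES marker signal after RA, lay nearest to the untreated arrays, and without it *Hey1* differed by -1.27. *Hes7* and *Hes2*, the latter dim there, instead had their lowest values on that array (-1.80 and -6.63). A link to the ES marker signal was not tested. The log2 fold change of *Hey1* was -1.08 (standard error 0.22, adjusted p = 0.00437 from limma). It was -1.09 on slide 1 and -1.07 on slide 2, each of which carried 2 arrays of each condition. Over 17 alternatives the value ran from -1.27 to -0.95. When limma tested for a change beyond 1.5-fold rather than any change, *Hey1* and *Hes7* did not pass (adjusted p = 0.12 and 0.791), while *Hes2* and *Hes3* did (1.91e-05 and 0.016).

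*Hes7*, the segmentation clock repressor, fell 1.6-fold. Its untreated values were -0.71, -1.15, -0.91 and -0.83 and its RA-treated values -1.73, -1.80, -1.34 and -1.46 for replicates 1 to 4 (NM_033041, chromosome 11, 68936702 to 68936761 in mm9). The groups were tight and did not overlap. The decrease, by limma -0.68 log2 units (standard error 0.17, adjusted p = 0.0114), stood close to the limit of 1.5-fold. It was -0.65 with quantile normalization (adjusted p = 0.0132 from limma). It was below that limit with the normexp background (-0.57), with normexp and quantile normalization (-0.52) and on the authors' processed values (-0.51), although its adjusted p was then 0.00421, 0.00979 and 0.00953.

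*Hes1*, the best known Notch effector, was higher on average after RA, with groups that overlapped. It read -2.0, -3.36, -2.61 and -3.62 on untreated replicates 1 to 4 and -2.16, -2.25, -2.59 and -1.20 on RA-treated replicates (NM_008235, chromosome 16, 30067820 to 30067879 in mm9). Untreated replicates 2 and 4, which shared slide 2, were its low arrays, and RA-treated replicate 4 its high array. The log2 fold change was 0.85 (95% interval -0.08 to 1.78, adjusted p = 0.139 from limma). With the slide as a block *Hes1* passed the limits (adjusted p = 0.0368), and the difference was 0.63 within slide 1 and 1.06 within slide 2. It also passed without untreated replicate 1 (1.14, adjusted p = 0.0498), while the replicate number as a block gave an adjusted p of 0.187. Over 17 alternatives the adjusted p ran from 0.0368 to 0.306.

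*Hes5*, the other Notch effector of neural progenitors, read -0.92, -1.45, -1.57 and -1.44 on untreated replicates 1 to 4 and -2.58, -1.78, -1.23 and -0.94 on RA-treated replicates (NM_010419, chromosome 4, 154336347 to 154336406 in mm9). RA-treated replicates 1 and 2 lay below the untreated arrays and replicates 3 and 4 within their range. The difference was -0.29 with a 95% interval of -1.07 to 0.49 (adjusted p = 0.507 from limma), and without RA-treated replicate 1 it was 0.03. *Hes6*, whose product opposes Hes1, had the smallest spread of the family, with 1.78, 1.56, 1.86 and 1.81 on untreated and 1.82, 1.83, 1.99 and 1.92 on RA-treated replicates (NM_019479, chromosome 1, 93308264 to 93308323 in mm9). Its difference of 0.14 had an interval of -0.17 to 0.44, which leaves out a change of 1.5-fold in either direction (adjusted p = 0.418 from limma). The arrays of the conditions overlapped.

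*Hey2* and *Heyl* were dim. *Hey2*, a heart regulator, read -5.53, -5.20, -4.38 and -4.79 on untreated replicates 1 to 4 and -3.12, -4.52, -4.81 and -4.78 on RA-treated replicates (NM_013904, chromosome 10, 30552729 to 30552788 in mm9). It was well above background on 3 untreated and all RA-treated arrays. RA-treated replicate 1 alone stood high, and the difference of 0.66 (95% interval -0.27 to 1.6, adjusted p = 0.214 from limma) was 0.27 without that array. *Heyl* was well above background only on untreated replicate 3, where it read -5.37, and its other values lay between -7.63 and -5.76 (NM_013905, chromosome 4, 122926975 to 122927034 in mm9). Since a single array measured *Heyl* above background, its differences are between background readings and do not measure a change.

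**Figure D2:**
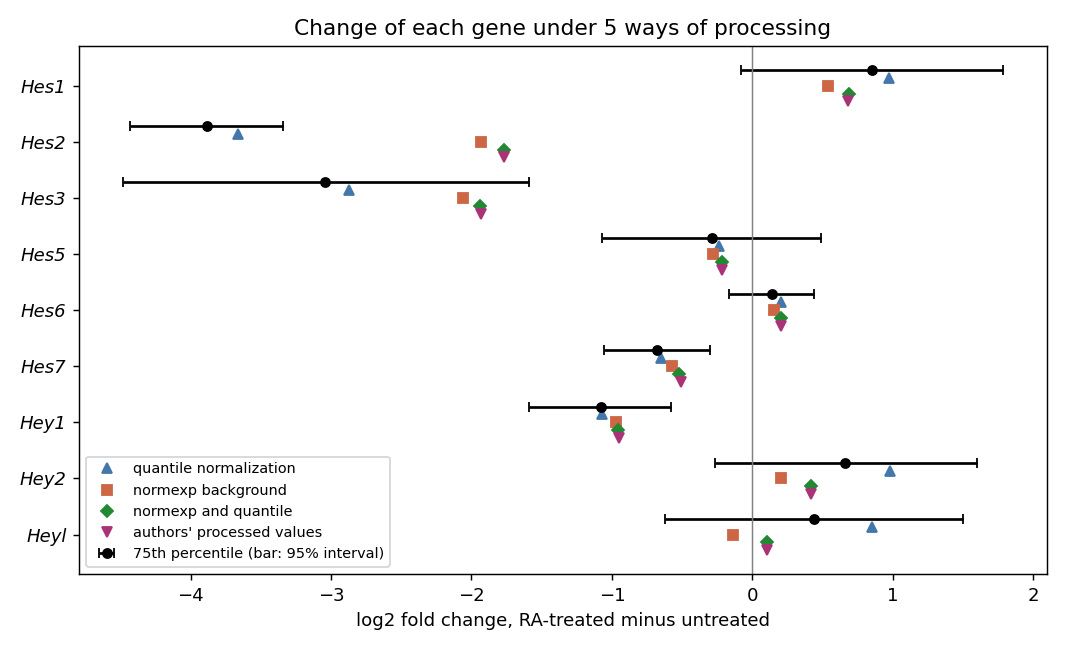
The log2 fold change (RA-treated minus untreated) of each Hes and Hey gene is plotted for 5 ways of processing the 8 arrays, with the 95% interval of the limma fit on the main values. Hes2 and Hes3 stayed below -1.7 under all 5, Hey1 stayed between -1.08 and -0.95, and Heyl, which was at background on 7 arrays, had values on both sides of 0 that measure no change.

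Whether members changed unequally was tested on the log2 difference between a pair of genes within each array. *Heyl*, dim on every RA-treated array, was left out, and the other 8 genes form 28 pairs. In 14 pairs the 4 RA-treated differences gave the smallest p that an exact two-sided permutation test of 4 against 4 arrays allows, 0.0286. This test does not keep same-numbered arrays together, and within the 4 pairs of replicates no p under 0.125 could be reached. None passed after adjustment over the 28 pairs, where the lowest adjusted p was 0.0571. At this resolution 17 pairs would have to reach the smallest p before any could pass, so the result does not show that the genes changed alike. The 14 pairs set *Hes2* against *Hes1*, *Hes5*, *Hes6*, *Hes7*, *Hey1* and *Hey2*, *Hes1* against *Hes3*, *Hes7* and *Hey1*, *Hes6* against *Hes3*, *Hes7* and *Hey1*, and *Hey2* against *Hes3* and *Hey1*. The pairs with *Hes2* rest on a probe that was dim on 3 RA-treated arrays, so their sizes are uncertain. *Hes6* minus *Hey1*, both above background on all arrays, differed by 1.22 log2 units between conditions. *Hes2* minus *Hes3* differed by -0.85, within the spread of the arrays (permutation p = 0.40, exact).

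*Hes2*, *Hes3*, *Hes5* and *Heyl* all lie on chromosome 4. The probes of *Hes2* and *Hes3* are 124 kb apart in mm9, that of *Hes5* is 2680 kb further on, and *Heyl* lies 28600 kb on the other side of *Hes2*. The genes around *Hes2* and *Hes3*, taken in the order of RefSeq after the values of both were known, did not share a direction. Between them lie *Acot7*, an acyl-CoA thioesterase gene, with a difference of -0.32 (adjusted p = 0.224 from limma), and *Gpr153*, an orphan receptor gene, which rose by 3.34 (adjusted p = 4.37e-06). Of the 3 genes before *Hes2*, *Plekhg5* fell by 2.03 and *Tnfrsf25* by 1.70, and *Espn* differed by 0.64 without passing the test. Of the 3 after *Hes3*, *Rnf207* rose by 0.83, the ribosomal protein gene *Rpl22* fell by 0.73, and *Icmt* differed by -0.18 without passing.

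**Figure D3:**
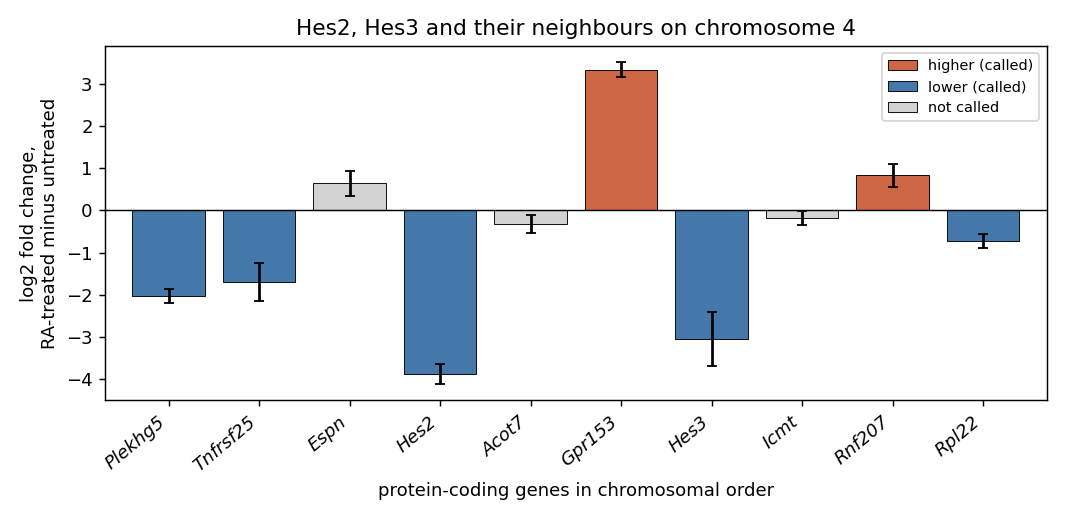
Bars give the log2 fold change (RA-treated minus untreated) of Hes2, Hes3 and the protein-coding genes beside them in chromosomal order, with standard errors from limma and colours for the calls. Gpr153, which lies between Hes2 and Hes3, rose by 3.34, against -3.88 for Hes2 and -3.04 for Hes3.

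The rest of the pathway was followed through 6 lists with 51 genes on the array, of which 11 rose, 20 fell and 20 did not pass, with a median log2 fold change of -0.28. These counts and those of the lists are to be set beside the 19.1% higher and 23.1% lower of all genes with a symbol, or 24.7% and 28.0% of those above background, to which 45 of the 51 belong, and the median of -0.25. Among 9 Notch receptors and ligands, 2 rose and 5 fell. The receptor *Notch2* rose by 1.10 (adjusted p = 0.000248 from limma), although a second probe gave 0.45 without passing, and *Notch3* rose by 0.94. The ligand genes *Dll3* and *Jag1* fell by 2.10 and 1.78, and the receptor *Notch4* fell by 2.02. Another receptor, *Notch1*, fell by 1.49 on the brighter of its 2 probes (adjusted p = 0.0148 from limma). The level of *Jag1* after RA was spread more widely than before (SD 0.97 against 0.23, n = 4).

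Of 19 genes of Notch signal transduction, 5 rose and 7 fell. Among those that fell was *Rbpj*, by 1.45 on the brighter of its 2 probes (adjusted p = 0.000526 from limma). *Adam10*, the protease that cleaves Notch at the surface, rose by 2.23 (adjusted p = 1.05e-05 from limma), and *Pofut1*, which fucosylates the receptor, rose by 1.40, with 0.61 on a second probe that did not pass. The coactivator genes *Maml3* and *Maml2* went opposite ways. *Maml3* rose by 4.94, and by 3.05 and 1.74 on its other probes, which were dim on 4 and 6 arrays, whereas *Maml2* fell by 1.79, with -0.52 on a second, mostly dim probe that did not pass. *Dtx1*, an E3 ligase of the pathway that is itself a Notch target, fell by 3.28 from 3.47 ± 0.33 to 0.20 ± 0.40 (SD, n = 4), and *Mfng*, a glycosyltransferase that modifies the receptor, fell by 2.47 (adjusted p = 2.81e-05 from limma).

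Among the 9 corepressors and helix-loop-helix partners, 4 rose and 3 fell. The Id genes, whose products lack a DNA-binding region and hold bHLH factors in inactive dimers, divided. *Id2* rose by 2.81, *Id1* by 2.66 and *Id3* by 1.98, and *Id4* fell by 1.15. *Id1* went from 1.18 ± 0.83 to 3.84 ± 0.17 and *Id3* from 2.40 ± 0.92 to 4.38 ± 0.15 (SD, n = 4), so the untreated arrays were the variable ones. Of the Groucho/Tle genes, *Tle2* rose by 0.97 (adjusted p = 0.00973 from limma) and *Tle1* and *Tle3* did not pass, while *Tle4* fell by 1.65 and *Aes* by 0.85 (adjusted p = 0.0115 from limma), the latter with -1.0 on a second probe that did not pass.

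Of 7 proneural bHLH genes, on which Hes repressors act, none rose and 4 fell. The smallest decrease, of *Neurog1* by 0.61 (adjusted p = 0.0265 from limma), was on a probe well above background on 3 untreated arrays and 1 RA-treated array. *Neurod1* was well above background on all untreated and no RA-treated array and was at least 33.7-fold lower (adjusted p = 3.21e-05 from limma). *Atoh1* was at least 5.18-fold lower by the same measure, which takes the brighter condition against the higher of the probe's signal and the lowest signal well above background on each dim array. *Neurog3* fell by 2.40, with no signal above background on a second probe.

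The segmentation clock genes that accompany *Hes7* included none that rose and 5 of 8 that fell. *Mesp2* fell by 2.89 (adjusted p = 0.000159 from limma), *Dll3* by 2.10 and *Dll1* by 1.53. *Lfng* and *Nrarp* fell by 1.29 and 1.25. Of the 5, only *Mesp2* is in no other list, since *Dll1* and *Dll3* are counted among the ligands and *Lfng* and *Nrarp* under signal transduction. The mesoderm regulator *Tbx6* differed by -0.28 without passing. Of the related bHLH-Orange genes *Helt*, *Bhlhe40* and *Bhlhe41*, none passed. *Helt* was well above background on no array and *Bhlhe41* on 2 untreated arrays. The 22 genes with the largest called changes in these lists kept call and sign in each of 16 alternative fits.

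**Figure D4:**
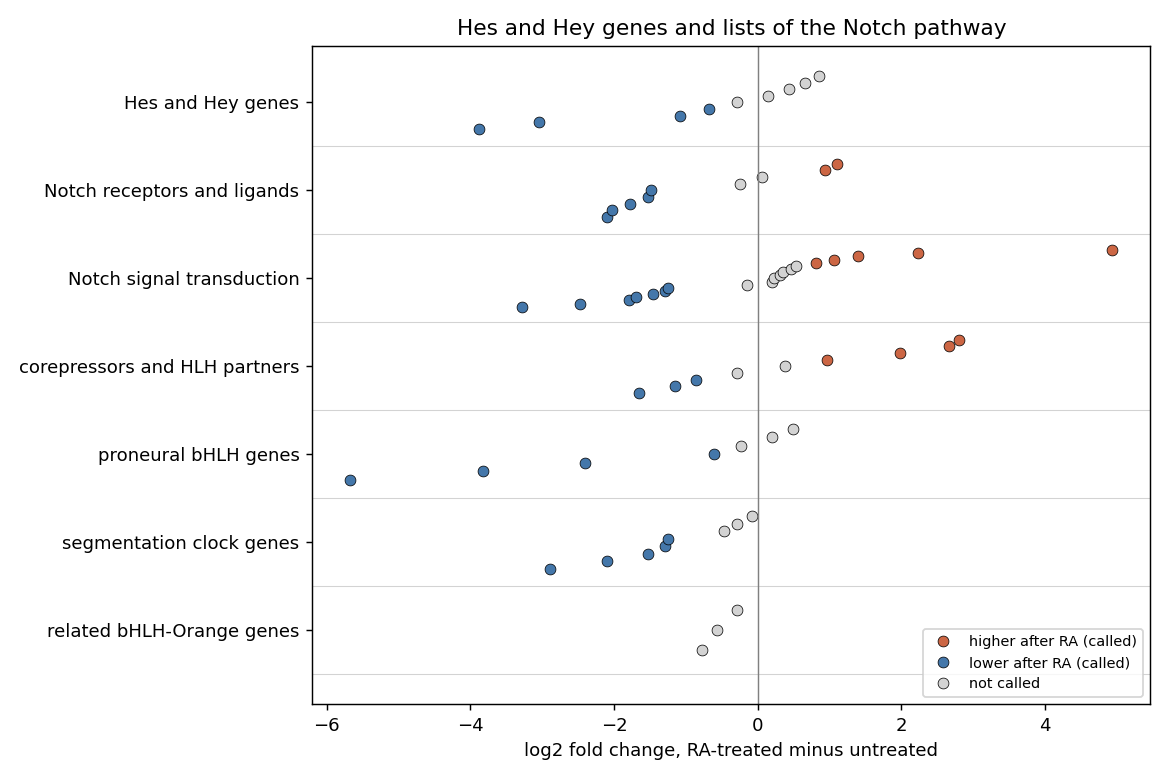
Points give the log2 fold change (RA-treated minus untreated) of the Hes and Hey genes and of the genes of 6 lists, coloured by call at an adjusted p under 0.05 and 1.5-fold. No proneural, segmentation clock or Hes and Hey gene rose, while 4 of the 9 corepressors and partners did. Dll1, Dll3, Lfng and Nrarp are in the clock list and in another list and appear in each.

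Genes with profiles most like those of the members that fell were sought among 12391 other genes well above background on all 8 arrays, by the root mean square distance between log2 values centred on each gene's mean. For *Hes3* these were *Zic2* (0.54), *Ankrd34a* (0.59) and *Ephx2* (0.60), with log2 fold changes of -2.70, -2.76 and -2.79. For *Hey1* they were *Zdhhc18* (0.13), *Sec11c* (0.14) and *Ube2a* (0.14). For *Hes7* they were *Prpsap1* (0.07), *Dnajc15* (0.08) and *Cxxc1* (0.08). *Hes2* was not compared in this way because it was dim after RA.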

How the data were processed

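The authors deposited, for each of 8 arrays, the Agilent Feature Extraction (version 10.7.3.1) output with spot intensity corrected for background and detrended, raw and local background intensity, and flags for background, saturation and outliers. They also deposited a table of processed log2 values, whose normalization is not given in the sources used here and whose 8 columns share their minimum, median and maximum. Groups and replicate numbers come from the sample titles.

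In R (version 4.3.3), log2 processed intensity of each array was centred on its 75th percentile over non-control spots. Outlier spots (124 to 145 per array) and control spots were dropped, and spots of a probe were averaged. A gene is represented by its brightest probe on average. Conditions were compared with limma (version 3.58.1), without covariates, with Benjamini-Hochberg adjustment over all 55681 probes. Standard errors and 95% intervals are those of the moderated fit.

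The members and lists were chosen with earlier results of these data known. Genes named from the pathway lists are the 3 largest called changes in each direction among genes well above background on all 4 arrays of a condition. *Lfng*, *Nrarp*, *Tbx6*, *Tle1* to *Tle3*, *Neurog1*, *Mesp1*, *Mixl1*, the related bHLH-Orange genes and the neighbours of *Hes2* and *Hes3* were named after their values were seen. The same holds for *Notch1* and *Rbpj*. Alternatives were quantile normalization, normexp background, both, the authors' values, a filter on dim probes, a limit of 2-fold, a test against 1.5-fold (treat), outlier spots kept, the mean over probes, slide or replicate as a block, and each array left out.

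The arrays lie on 2 slides with 2 of each condition. Replicate numbers may pair cultures, since over 27491 probes the deviations of same-numbered arrays correlated at 0.186, 0.189, 0.104 and 0.151. Arrays of unlike number reached 0.142 and 0.13, above the lowest of these. The main fit did not pair the arrays, and the replicate number as a block was run as an alternative. The labels give biological replicates without further detail of their origin. Precision is limited by the number of arrays.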

Additional observations from a re-analysis of the deposited data

Results flagged for a closer look

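For the Hes and Hey genes and the 22 pathway genes, each condition was examined, and 2 of 62 groups of 4 arrays held an array that stood apart from the other 3 beyond the 95% critical value of Dixon's test, and chance gives about 3.1. *Hey2* on RA-treated replicate 1 read -3.12 against -4.81 to -4.52 on the other RA-treated arrays. *Neurod1* on RA-treated replicate 4 read -7.78 against -5.94 to -5.63, all of them below the level that counts as well above background. No cause was tested.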

How the results depend on the processing

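Over the processing alternatives, *Hes2*, *Hes3* and *Hey1* kept their direction, and their calls except that treat, which tests against 1.5-fold, left out *Hey1*, with log2 fold changes from -4.01 to -1.77, -3.62 to -1.93 and -1.27 to -0.95. The number of Hes and Hey genes higher after RA, 0 in the main comparison, was 1 with the slide as a block (*Hes1*), and leaving out single arrays gave 0 to 1 (1, *Hes1*, without untreated replicate 1). The number lower was 4 with each array left out, 3 at a limit of 2-fold, with the normexp background, with normexp and quantile normalization and on the authors' values, each without *Hes7*, and 2 with treat. *Hes5* ran from -0.52 to 0.03 with single arrays left out and changed sign without RA-treated replicate 1, and the difference of the background readings of *Heyl* did so with the normexp background (-0.14) and within slide 1 (-0.47). The replicate block changed no call of a Hes or Hey gene, with 4 lower and 0 higher, and gave 11 pathway genes higher and 19 lower in place of 11 and 20. The comparison within slides and the floor used for *Hes2* were added after the values were seen. Pathway genes lower numbered between 18 and 22 in the alternatives run for them, which did not include the 2-fold limit and treat. For these differences the cause was not tested. Signals near background limit *Hes2* after RA, *Hey2* and *Heyl*, where an offset in the background correction shrinks differences by construction.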
